A study of Mus musculus with 91 samples.

Results

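A set of 10 genes, grouped as basophil, mast cell and eosinophil genes, was followed through 91 single bone marrow progenitors of the mouse. The genes were Cpa3, Gata2, Mcpt8, Ms4a2, Hdc, Prss34, Prg2, Epx, Fyb and Apoe. Not all are particular to these cell types: Apoe and Gata2 also serve below as markers of macrophages and of multilineage progenitors. All 10 were taken by name and had a row among the 23956 genes measured. The mice were C57BL/6 with the genotype Gfi1-R412X/- Irf8+/-, in which the transcription factor GFI1 carries the R412X change over a minus allele and 1 copy of Irf8 is lost. All cells shared this genotype, so nothing here can be set against a wild type. There were 2 sorted populations: 46 cells labelled GMP (granulocyte-monocyte progenitors) and 45 labelled CD11b+ GMP-P. CD11b is the product of the integrin gene Itgam. The sort gate given for both was lineage-negative, CD117+, Sca-1-, CD34+ and CD16/32high, and the content of the lineage mix is not given in the sources used here. Expression is in TPM, the share of a cell's transcripts that a gene takes after correction for its length, and means and differences are of log2(TPM + 1). No animal is named in the labels, which makes each population 1 sample. Populations were therefore not tested against each other, and the SD is over cells.

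Basophils, mast cells and eosinophils are granule-bearing leukocytes that arise in marrow from progenitors overlapping with those of neutrophils and monocytes. GATA2 is the transcription factor that mast cells and basophils need, whereas neutrophil progenitors are marked by primary granule proteins such as neutrophil elastase (Elane) and myeloperoxidase (Mpo). The 10 genes cover several roles. Gata2 is the regulator, Ms4a2 encodes the beta chain of the high-affinity IgE receptor, and Fyb encodes a signalling adaptor. Hdc encodes histidine decarboxylase, which makes histamine. Cpa3 (carboxypeptidase A3), Mcpt8 (a basophil protease) and Prss34 (a basophil and mast cell tryptase) are granule proteases. Prg2 (major basic protein) and Epx (eosinophil peroxidase) are eosinophil granule proteins. Apoe encodes a lipid carrier that is abundant in macrophages and also made by mast cells.

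The promoters of Cpa3, Ms4a2 and Prss34 are shown as 3 examples of members whose highest levels were in the cells with the most Gata2. Each run holds the 250 bases upstream of the annotated start on the gene's own strand (RefSeq, GRCm38.p6). The windows are chr3:20242182-20242431 (minus strand) for Cpa3, chr19:11623720-11623969 (minus) for Ms4a2 and chr17:25298144-25298393 (plus) for Prss34. Capitals mark the GATA factor motif searched, which is GATA with an A or T before it and an A or G after it, on either strand (read on the opposite strand it is TATC with a C or T before it and an A or T after it).
Cpa3: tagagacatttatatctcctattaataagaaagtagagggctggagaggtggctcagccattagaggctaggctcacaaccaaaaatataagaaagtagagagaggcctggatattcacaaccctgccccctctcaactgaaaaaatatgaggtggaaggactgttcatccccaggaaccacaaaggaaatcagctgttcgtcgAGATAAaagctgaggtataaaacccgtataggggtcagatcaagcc
Ms4a2: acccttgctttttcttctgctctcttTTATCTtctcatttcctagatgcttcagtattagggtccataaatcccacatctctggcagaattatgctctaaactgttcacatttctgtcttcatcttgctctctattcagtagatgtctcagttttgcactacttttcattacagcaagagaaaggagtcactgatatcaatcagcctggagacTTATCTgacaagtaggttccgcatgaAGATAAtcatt
Prss34: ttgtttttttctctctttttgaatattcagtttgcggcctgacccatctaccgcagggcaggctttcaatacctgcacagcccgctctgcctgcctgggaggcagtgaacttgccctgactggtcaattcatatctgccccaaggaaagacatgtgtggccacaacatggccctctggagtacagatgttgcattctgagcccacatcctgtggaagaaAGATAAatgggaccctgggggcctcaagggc
The last match began 46 bases before the start in Cpa3, 11 in Ms4a2 and 31 in Prss34. Fyb, also highest in the cells with the most Gata2 but not printed, held 2 matches. Its last match began 180 bases before the start. Ms4a2 held 3 matches, a number reached by 1.35% of the 32851 promoters of this length, whereas 26.5% held at least 1. Among the 9 members with a promoter available, 6 held a match at some start: Hdc, Fyb and Apoe in addition to the 3 shown. Counted by promoter, as the 26.5% is, 6 of the 12 starts of these members held a match. No match lay in the windows of Gata2, Mcpt8 or Epx. These matches are letters in a window, not measured binding.

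A threshold of 10 TPM was used to say that a cell held a gene. Hdc was the most widely held, with 39 of 46 cells in GMP (84.8%, 71.1 to 93.7) and 24 of 45 in CD11b+ GMP-P (53.3%, 37.9 to 68.3). Bounds in parentheses are 95% Clopper-Pearson limits (exact), which cover counting error only. For Mcpt8 the numbers were 14 (30.4%, 17.7 to 45.8) and 3 (6.67%, 1.40 to 18.3), and for Gata2 they were 11 and 1. The other proteases and the receptor were rare: Cpa3 in 4 and 1 cells, Ms4a2 in 4 and 2, Prss34 in 1 and 0. For Prss34, 0 of 45 cells allows a share of up to 6.67% if 3 cells are taken as the limit of a count of 0, and the exact upper bound is 7.87%. Prg2 was held by 2 GMP and 3 CD11b+ GMP-P cells and Epx by 0 and 1. Fyb (9 and 8 cells) and Apoe (10 and 11 cells) were held about as often in each population. The plot of the 10 genes by cell shows these levels.

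**Figure D1:**
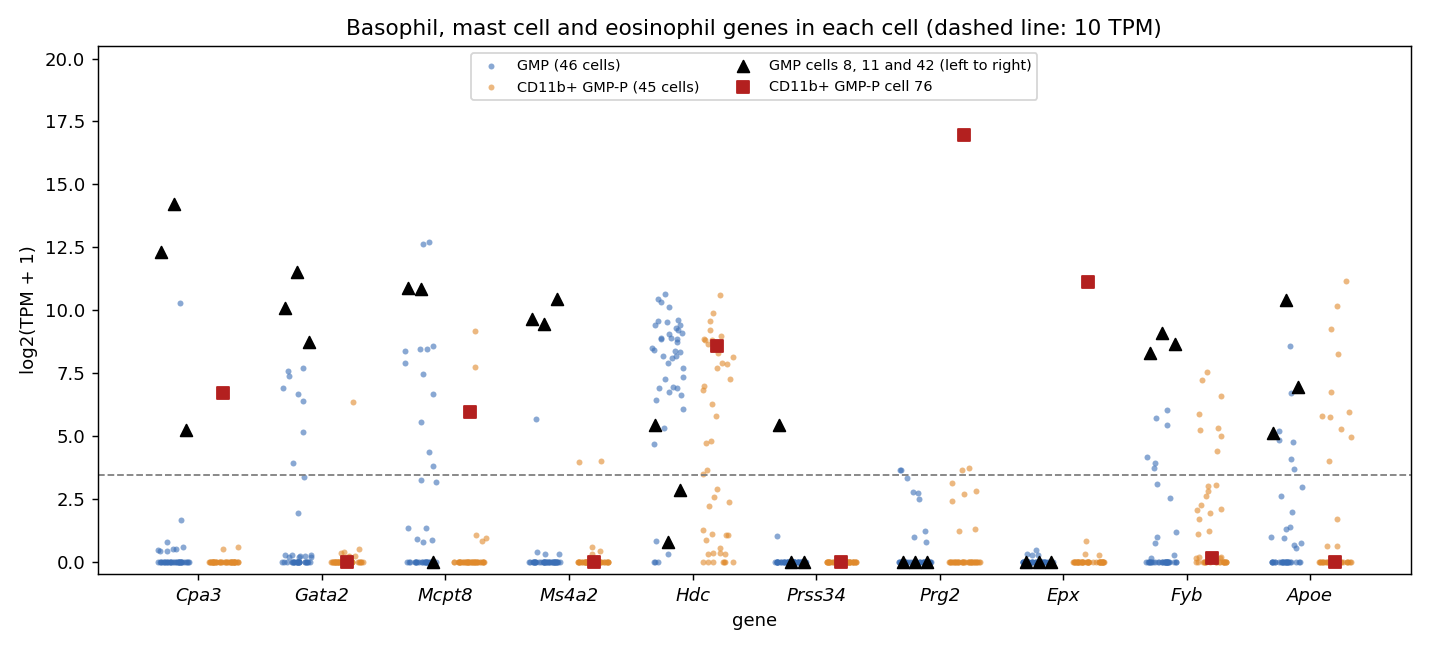
Level of each of the 10 genes in every cell, as log2(TPM + 1). Blue points are the 46 GMP cells, orange points the 45 CD11b+ GMP-P cells, and the dashed line is 10 TPM. Black triangles (GMP cells 8, 11 and 42) carry the highest Gata2 and Ms4a2, GMP cells 11 and 8 the highest Cpa3, and the red square (CD11b+ GMP-P cell 76) carries those of Prg2 and Epx.

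Between the populations, the regulator, a protease and the histamine enzyme were lower in CD11b+ GMP-P. Gata2 averaged 1.94 ± 3.33 (SD, n = 46 cells) in GMP and 0.18 ± 0.95 (n = 45 cells) in CD11b+ GMP-P, a difference of -1.76. Mcpt8 averaged 2.79 ± 4.05 and 0.57 ± 1.95, a difference of -2.22. For Hdc the means were 7.06 ± 3.07 and 4.42 ± 3.73, a difference of -2.64, and the median level was 289 against 11.6 TPM. In each of these 3 genes the levels of the populations overlapped, and cells at 0 occurred in both.

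Of the 10 genes, 5 were held by 10% or more of one population or the other (Gata2, Mcpt8, Hdc, Fyb and Apoe). Of these, 3 were lower by at least 1 in CD11b+ GMP-P and 0 were higher. Gata2 (23.9% of GMP and 2.22% of CD11b+ GMP-P cells) and Mcpt8 (30.4% and 6.67%) reached 10% in GMP only. Their direction was thus tied to how they entered the count. With a pseudocount of 10 the Gata2 difference was -0.98 and no longer called, which left 2. Among all 7736 genes with that detection, 38.8% were lower by as much and 3.17% higher. The median difference was -1.76 over the 5 members and -0.76 over all 7736 genes. Number of genes detected moved the same way: 5294 ± 801 genes per cell (SD, n = 46 cells) were above 0 in GMP and 4112 ± 953 (n = 45 cells) in CD11b+ GMP-P. In the 26 GMP and 21 CD11b+ GMP-P cells with 3946 to 5645 genes above 0, a range both populations share, the Hdc difference shrank to -0.95, while those of Gata2 (-1.85) and Mcpt8 (-1.89) remained over 1 in size. Fyb (+0.21) and Apoe (+0.17) stayed within 1 in the full set. Without the 6 cells that held 4 or more of the genes they were at +0.85 and +0.80, Apoe reached +1.22 in the shared range, and Fyb was at -1.08 by the ratio of mean TPM. Markers of other cell types also differed between the populations. All 6 neutrophil primary granule markers were lower in CD11b+ GMP-P (median -3.59), all 9 late granule markers were higher (median +6.63), and 6 of 7 detected multilineage progenitor markers were lower (median -2.75). Their part in the members' differences was not tested.

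Cells that held many of the genes were few. All 46 cells of GMP and 33 of the 45 of CD11b+ GMP-P held at least 1, in most of them Hdc. In GMP, 5 cells held 4 or more (10.9%, 3.62 to 23.6), and in CD11b+ GMP-P 1 cell did (2.22%, 0.0562 to 11.8). These 6 cells were picked for their levels of the members, so those levels are given as a description. In 5 of the 6 cells the number of genes detected was small: GMP cells 8, 11, 13 and 42 had 3961, 2796, 3942 and 3067 genes above 0, under the GMP median of 5461 (GMP cell 12 had 5547), and CD11b+ GMP-P cell 76 had 3084, under its population's median of 4147.

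GMP cell 8 held 8 of the 10 genes. Its proteases were Cpa3 at 5132 TPM, Mcpt8 at 1866 TPM and Prss34 at 41.9 TPM, and Gata2 stood at 1099 TPM. Ms4a2 was at 792 TPM together with Fcer1a, the alpha chain of the IgE receptor, at 1003 TPM. No other cell but GMP cell 11 held Fcer1a. Alox5, the 5-lipoxygenase of leukotriene synthesis, was at 709 TPM, Slc18a2, the vesicular monoamine transporter that loads histamine into granules, at 327 TPM, and Hdc at 41.6 TPM. The cell kept part of the neutrophil program, with Mpo at 3062, Ctsg (cathepsin G) at 1788 and Elane at 302 TPM. Kit was listed at 0 in it.

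GMP cell 11 carried the most Cpa3 of any cell, 18985 TPM, rank 3 among its genes and 1.90% of its TPM. Mcpt8 (1815 TPM), Gata2 (2895 TPM), Ms4a2 (699 TPM) and Apoe (1349 TPM) were high as well. Cma1, a mast cell chymase, reached 8963 TPM and Gzmb (granzyme B) 3474 TPM. Mcpt2 (160 TPM) and Mcpt4 (59.7 TPM), other mast cell chymases, were held by no other cell. Kit, the stem cell factor receptor on which mast cells depend, was at 1089 TPM, Mitf, a mast cell transcription factor, at 749 TPM, and Hpgds, a prostaglandin D synthase, at 278 TPM. Hdc was at 0.71 TPM, Elane at 15.95 TPM and Mpo at 13.3 TPM. The tryptases Tpsb2 and Tpsab1 were listed at 0 in every cell.

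GMP cell 42 shared Gzmb (3274 TPM) and Cma1 (130 TPM) with GMP cell 11, and no other cell held either gene. Unlike GMP cells 8 and 11, it had Mcpt8 at 0 and Cpa3 at only 36.4 TPM. It also lacked the Mitf and Hpgds of GMP cell 11, both listed at 0, and had Kit at 3.09 TPM and Hdc at 6.24 TPM. It carried the highest Ms4a2 of all cells, 1379 TPM, without Fcer1a (listed at 0), and Gata2 at 424 TPM. Slc18a2 (1147 TPM), the integrin subunit Itgb7 (1250 TPM) and the cofactor Lmo4 (3337 TPM) were each at their highest in this cell. Elane (11.7 TPM) and Mpo (8.21 TPM) were near those of GMP cell 11. Cpa3, Gata2, Ms4a2, Fyb and Apoe were thus shared by these 3 cells, and Mcpt8 by GMP cells 8 and 11.

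CD11b+ GMP-P cell 76 held eosinophil granule genes, but not all that were listed. Ear2 was at 0 in it, and Ear6 and Ear10 were at 0 in every cell. The receptor genes Il5ra and Ccr3, which no cell held, and the transcription factor gene Gata1 were also at 0 in it. Prg2 stood at 128468 TPM, 12.8% of the cell's TPM and its most abundant gene, ahead of Actb at 12268 TPM. Epx was at 2241 TPM, Prg3, the Prg2 homologue, at 2040 TPM, Alox15, an eosinophil lipoxygenase, at 538 TPM and Ear1, an eosinophil ribonuclease, at 57.2 TPM. Hdc (382 TPM), Cpa3 (104 TPM) and Mcpt8 (60.2 TPM) were present, and Gata2, Ms4a2 and Prss34 were listed at 0. Kit was held by only 3 CD11b+ GMP-P cells, and Itgam was at 0 in CD11b+ GMP-P cells 49 and 59, among others. Kit at 0 thus did not set this cell apart from its population. Its Itgam, at 0.22 TPM, lay within the range of the population, but cells 49 and 59 had Elane at 18446 and 24718 TPM. This cell had Elane at 853 TPM. All CD11b+ GMP-P cells with less Elane than this cell had more Itgam, at 3.2 to 284.51 TPM. Prg2 above 0 was seen in 17 other cells at 0.72 to 12.1 TPM, at most 0.0094% of the level in this cell, and Epx in 7 others at 0.20 to 0.76 TPM. The other Prg2-holding cells, 2 in each population, thus lay just over the threshold.

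The remaining cells with 4 members, GMP cells 12 and 13, held all 6 neutrophil primary granule markers, which summed to 65450 and 39779 TPM. Their late granule markers summed to 1528 and 934.5 TPM, where the median of the 41 GMP cells with under 4 members was 906 TPM. GMP cell 13 had Mcpt8 at 6363 TPM, rank 10 among its genes, with Hdc at 629 TPM and Elane at 15269 TPM. In GMP cell 12, Mcpt8 was at 99.9 TPM, Hdc at 275 TPM and Elane at 24466 TPM. Neither held Cpa3, Gata2 or Ms4a2. Transcripts of the factors altered in these mice split the 6 cells in the same way. Gfi1 was between 0 and 0.64 TPM and Irf8 between 0 and 0.44 TPM in GMP cells 8, 11 and 42 and in CD11b+ GMP-P cell 76, while GMP cells 12 and 13 held both. Over all cells, Gfi1 was held by 36 of 46 GMP and 23 of 45 CD11b+ GMP-P cells, and Irf8 by 35 and 18. Among GMP cells outside the 6, only GMP cells 41 and 48 also held neither, with Elane at 4826 and 34361 TPM. Their Gfi1 was at 9.82 and 2.47 TPM and their Irf8 at 0.85 and 5.2 TPM. Several other CD11b+ GMP-P cells held neither, such as cells 63 and 94. The map of cells with 3 or more members shows the patterns of the 6 cells.

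**Figure D2:**
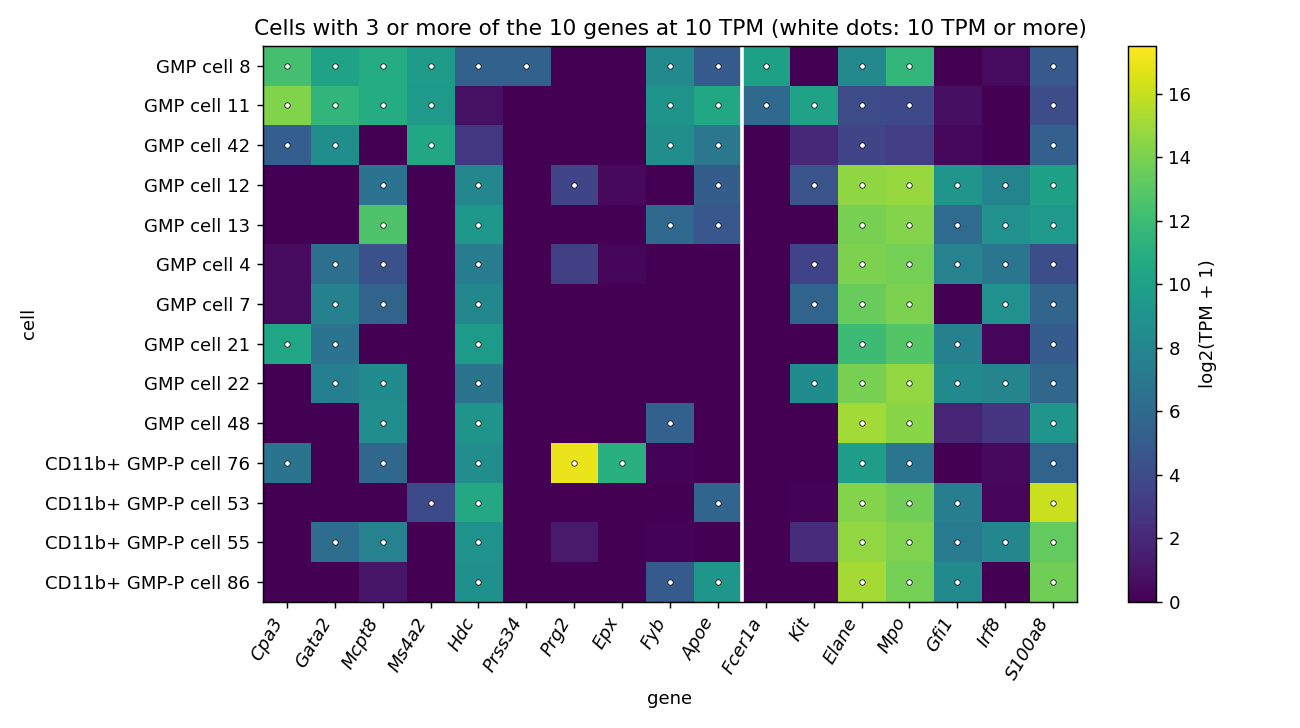
Level, as log2(TPM + 1) in colour, of the 10 genes and, right of the white line, of 7 other genes in each cell that held 3 or more of the 10. White dots mark 10 TPM or more. GMP cells 8, 11 and 42 combine Cpa3, Gata2 and Ms4a2 with low Elane, CD11b+ GMP-P cell 76 alone holds Epx, and the other rows combine high Elane and Mpo with Hdc.

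Markers of other cell types were read in the same cells. The 6 neutrophil primary granule markers summed to 6289, 33.9 and 1064 TPM in GMP cells 8, 11 and 42, and to between 16721 and 92439 TPM in the 41 GMP cells with under 4 members. The 8 monocyte markers summed to 409, 0 and 0.19 TPM, against 32.8 to 6473 TPM. Of the 12 macrophage markers, only Apoe was above 0 in these 3 cells and 11 were listed at 0. However, 6 of the 12, among them the complement genes C1qa, C1qb and C1qc, were at 0 in every cell. Their zeros therefore do not set these cells apart. Apoe alone gave sums of 33.8, 1349 and 121 TPM, against 0 to 1675 TPM with a median of 16.1 TPM. Of the 18 erythroid and megakaryocyte markers, Klf1 was at 0 in every cell and Gata1 in every GMP cell. Those zeros therefore do not set the 3 cells apart. The sums of that list were 63.02, 704 and 50.9 TPM, against 0 to 199 TPM with a median of 0.17 TPM. In GMP cell 11 Itga2b, an integrin subunit of megakaryocytes, gave 702 TPM of it. Itga2b was at 46.2 TPM in GMP cell 42, and in GMP cell 8 Car2 was at 49.3 TPM and Gp9 at 12.97 TPM. The 10 multilineage progenitor markers, which include Gata2 and Kit, summed to 2490, 5849 and 453 TPM, against 242 to 3116 TPM. Of the 9 T, NK and B cell markers, Cd3e was at 0 in every cell, and the sums of 4494, 3.44 and 3651 TPM, against 57.98 to 7482 TPM, came mostly from Nkg7, a granule gene that 44 of the 46 GMP cells held. In CD11b+ GMP-P cell 76 the 9 late granule markers summed to 151 TPM, and the median of the other CD11b+ GMP-P cells was 337454 TPM. Its primary granule markers summed to 3551 TPM (median of the others 17421 TPM) and its monocyte markers to 1503 TPM (median of the others 28.96 TPM), 1502 TPM of it from Ms4a6c. The part of other cell types in the results was not tested.

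**Figure D3:**
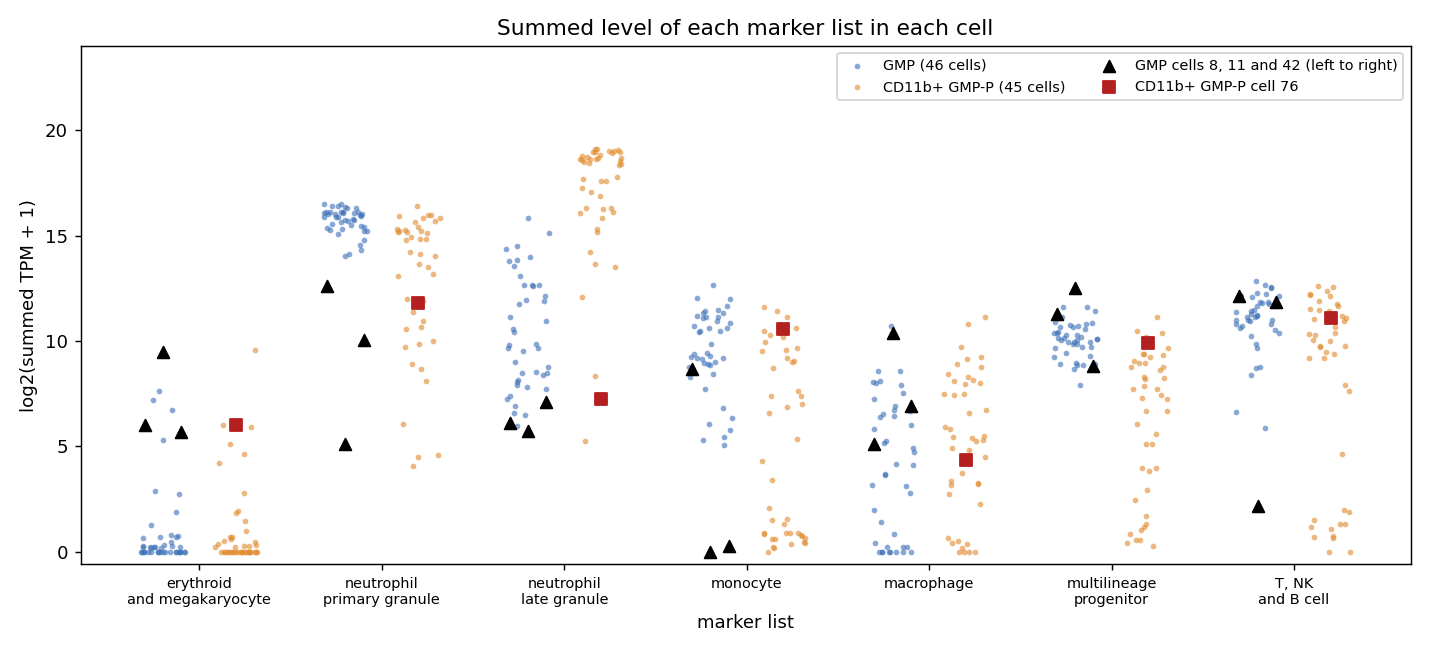
Summed level of 7 marker lists in every cell, as log2(summed TPM + 1), with GMP in blue and CD11b+ GMP-P in orange. GMP cells 8, 11 and 42 (black triangles) lie below the other GMP cells in the primary granule list, and CD11b+ GMP-P cell 76 (red square) lies far below most of its population in the late granule list.

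Co-detection with Elane separated the members. Every GMP cell and 40 of the 45 cells of CD11b+ GMP-P had Elane at 10 TPM or more. Cells rich in this primary granule transcript (Elane-high) were therefore marked by a level of 1000 TPM. It left 43 GMP cells at 4012 to 54039 TPM and only GMP cells 8, 11 and 42 below it. In CD11b+ GMP-P, 29 cells were above and 16 below. The Elane-low cells of that population were of another kind: 15 of the 16 had the late granule gene Camp at 32301.5 to 75183 TPM and S100a8 at 122731 to 199559 TPM, and the other was cell 76, with Camp at 6.25 TPM.

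Hdc was held by most Elane-high cells. The gene was found in 38 of 43 Elane-high GMP cells (88.4%, 74.9 to 96.1), at 24.4 to 1590 TPM with a median of 350 TPM. In CD11b+ GMP-P it was held by 18 of 29 Elane-high cells (62.1%, 42.3 to 79.3) and by 6 of 16 Elane-low cells (37.5%, 15.2 to 64.6). Among the Elane-high GMP cells, the 5 without Hdc had monocyte marker sums of 1355 to 4023 TPM with a median of 2777 TPM, and the 38 with it 32.8 to 6473 TPM with a median of 616 TPM. Gfi1 was at most 74.8 TPM in those 5 cells and at a median of 201 TPM in the 38. In the 18 Elane-high CD11b+ GMP-P cells with Hdc, Camp had a median of 353 TPM, against 21538 TPM in the 11 without it, and the ranges overlapped. Median genes above 0 were 4740 and 4130 in the same cells, and the part of the number of genes detected was not tested.

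Mcpt8 followed Hdc in frequency among Elane-high GMP cells. It was held by 12 of 43 Elane-high GMP cells (27.9%, 15.3 to 43.7), at 12.8, 19.3, 46.3, 99.9, 176, 237, 327, 345, 352, 375, 6363 and 6643 TPM. The highest value, in GMP cell 17, stood beside Elane at 7806 TPM and exceeded the Mcpt8 levels of GMP cells 8 and 11. In CD11b+ GMP-P, 2 of 29 Elane-high cells held it (6.90%, 0.846 to 22.8), cell 52 at 575 TPM and cell 55 at 211 TPM. All 12 GMP cells and both CD11b+ GMP-P cells also held Hdc. S100a8 had a median of 371 TPM in the 12 cells and 1320 TPM in the other 31 Elane-high GMP cells, and Elane medians were 16897 and 26190 TPM, with overlapping ranges. Genes above 0 were alike, with medians of 5530 and 5553.

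Gata2 was held by 8 of 43 Elane-high GMP cells (18.6%, 8.39 to 33.4), at 14.04, 34.8, 82.6, 101, 120, 165, 191 and 207 TPM. These values lay under the 424, 1099 and 2895 TPM of GMP cells 42, 8 and 11. The 8 cells had Elane at 4012 to 23376 TPM (median 16086 TPM), and the 35 without Gata2 had 4826 to 54039 TPM (median 26608 TPM). S100a8 medians were 86.5 and 1198 TPM and Cd34 medians 411.5 and 224 TPM, with overlapping ranges. Gata2 and Mcpt8 met in 3 of the 43 cells (GMP cells 4, 7 and 22), Gata2 alone in 5, Mcpt8 alone in 9 and neither in 26. All 8 Gata2 cells held Hdc. The only CD11b+ GMP-P cell with Gata2, cell 55 at 80.2 TPM, held Mcpt8 and Hdc as well.

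Cpa3 and Ms4a2 were almost absent from Elane-high cells. Of 43 GMP cells, 1 held Cpa3 (2.33%, 0.0589 to 12.3), GMP cell 21 at 1242 TPM, which also held Gata2 at 101 TPM and Hdc at 754 TPM and had the lowest Elane of the 43, 4012 TPM. Of 29 CD11b+ GMP-P cells, 0 did (upper exact bound 11.9%). Ms4a2 was held by GMP cell 46 at 49.3 TPM and by CD11b+ GMP-P cells 53 and 96 at 14.5 and 14.9 TPM, far under the 699 to 1379 TPM of GMP cells 8, 11 and 42. Prss34 and Epx were held by no Elane-high cell. The plots of 4 genes against Elane show the contrast between Cpa3 and Hdc.

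**Figure D4:**
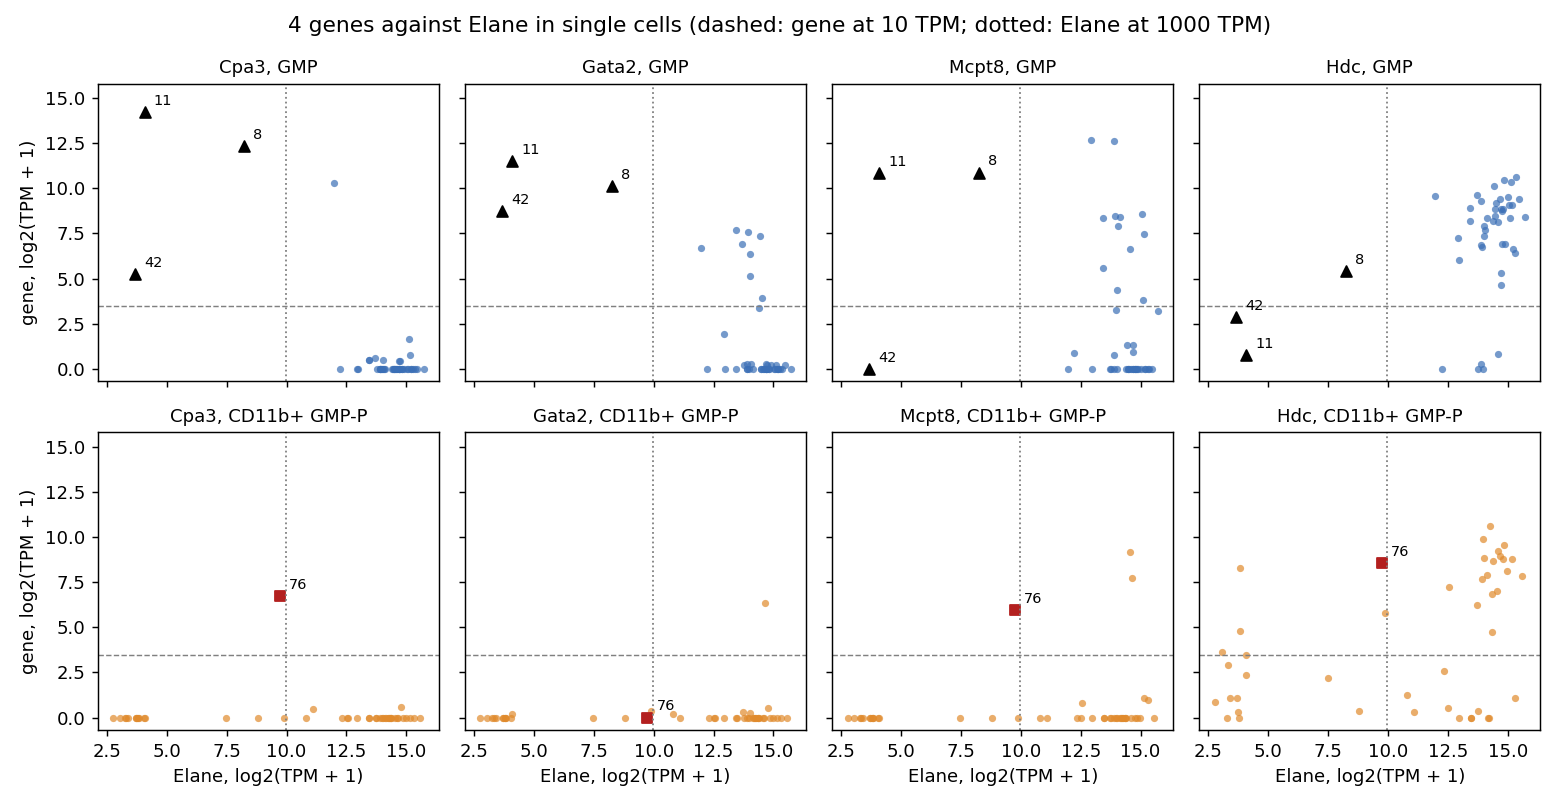
Cpa3, Gata2, Mcpt8 and Hdc against Elane in single cells, both as log2(TPM + 1), with the 46 GMP cells above and the 45 CD11b+ GMP-P cells below. The dashed line is 10 TPM of the gene and the dotted line 1000 TPM of Elane. Among GMP cells, only 8, 11 and 42 lie left of the dotted line, and most points over the dashed line right of it are in the Hdc panels.

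Fyb and Apoe occurred on both sides of the Elane level. Fyb was at 313, 397 and 538 TPM in GMP cells 8, 42 and 11, over every other cell, and at 12.4 to 63.5 TPM in 6 of 43 Elane-high GMP cells (13.95%, 5.30 to 27.9). In CD11b+ GMP-P it was held by 3 of 29 Elane-high cells and 5 of 16 Elane-low cells, at up to 184 TPM. Apoe was highest in CD11b+ GMP-P cell 56, at 2265 TPM beside Elane at 11249 TPM. It was held by 7 of 43 Elane-high GMP cells, 10 of 29 Elane-high CD11b+ GMP-P cells (34.5%, 17.9 to 54.3) and 1 of 16 Elane-low ones, and these 11 CD11b+ GMP-P cells included both that held Ms4a2 and neither of the single cells that held Cpa3 or Gata2.

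The wider pathways were read through 6 lists of genes, in which 70 of 71 named genes had a row. Over these lists 12 genes were lower by at least 1 in CD11b+ GMP-P and 2 were higher, among 31 that passed the detection threshold, so the share lower was near the 38.8% of all detected genes. Some passed only through the population where they were higher. Examples are Kit (26 GMP and 3 CD11b+ GMP-P cells), Alox5 (1 and 12) and Ear2 (0 and 8). Of 12 granule proteases and granule enzymes, 3 passed, and all were lower, Ctsg by a difference of -5.11, Srgn (the granule proteoglycan serglycin) by -5.06 and Mcpt8, with a list median of -5.06. Ctsg is also one of the neutrophil primary granule markers, all of which were lower. Of 12 transcription factors, 7 passed and 3 were lower, namely Gata2, Lmo2 (-1.27) and Cebpa (-1.05), with a median of -0.91. Of 14 receptors, 6 passed and 1 was lower, Kit at -2.75, with a median of +0.26, and Fcer1g, the IgE receptor gamma chain shared with other Fc receptors, differed by +0.78. Of 12 mediator genes, 6 passed, 3 were lower (Hdc, Slc18a2 at -1.69 and the chemokine Ccl3 at -1.11) and 1 was higher (Alox5 at +1.89), with a median of -0.84. Of 12 adaptors and signalling genes, 8 passed and 2 were lower, Lat2 (-1.49) and the phosphatase Inpp5d (-1.44), with a median of +0.24. Only Ear2 of 8 eosinophil granule genes passed, higher by +1.54. It was held by 8 CD11b+ GMP-P cells, at up to 724 TPM in cell 71, but was at 0 in cell 76, and reads of the near-identical Ear genes could have been split. The median of all 7736 genes was -0.76. The cytokines Il4, Il5 and Il13 and the leukotriene enzyme Ltc4s were listed at 0 in every cell.

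Likeness of pattern was measured by the Jaccard index, the number of cells holding both genes divided by the number holding either, over 91 cells and 9507 genes. For Cpa3, 4 genes tied as the closest at 0.6, among them Gnb4 (a G protein beta subunit), Itga2b and Lag3 (the first 3 by name), each with all 3 of its cells shared. For Ms4a2 the closest were Gnb4 and Lag3 (0.5) and Il1rl1, the interleukin 33 receptor of mast cells and basophils (0.43). Gata2 was closest to Jmjd8 (0.39), and Mcpt8 to Sdr39u1 (0.38). Hdc was closest to Kars (0.79), Ndufb6 (0.78) and Rnaset2a (0.78), genes held by 67 to 78 cells. The closest genes of Prss34, Prg2 and Epx shared 1 or 2 cells with them at an index of 0.33, with 21, 4 and 10 genes tied, and are not named. Indices that rest on so few cells describe these cells only.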

How the data were processed

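Per the labels' protocols, hindlimb marrow was enriched for CD117, sorted, captured on a Fluidigm C1 chip, copied with the SMARTer kit and made into Nextera XT libraries. Per the submitters' processing notes the tools and build were RSEM, without a version, and mm9. Aligner and annotation: not given in the sources used here. The authors deposited 1 table of log2 values. Less a pseudocount of 1 on the linear scale, they sum to 999999 to 1000080 per cell, so they are log2(TPM + 1). TPM keeps no depth, and genes above 0 per cell stand in for it. The kits mark no strand or molecule, so reads of overlapping genes cannot be separated, and reads of near-identical genes (Ear, Csf2rb and Csf2rb2, Tpsb2 and Tpsab1, Ccl3 and Ccl4) may be split.

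Populations were taken from the labels, and all 91 columns matched a labelled cell. The highest correlation between 2 cells was 0.736. No doublet caller was run and no cell was left out. A population is 1 sample, so no p-value was computed. A difference is the CD11b+ GMP-P mean less the GMP mean, called from 1 in size. A cell held a gene from 10 TPM. Genes counted as detected when held by 10% of the cells of either population. The calculation was tested on simulated data. Alternatives were pseudocounts of 0.1 and 10, the ratio of mean TPM, median of ratios scaling, other thresholds and filters, and subsets of the cells.

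The members and lists were chosen with earlier results of these data known. Named are the members, Elane, Gfi1 and Irf8, up to 3 further genes of each list with the largest differences, up to 10 genes held by most of the cells with 4 or more members and by the fewest others, and 3 neighbours of a member by Jaccard index. List genes and markers given for single cells, and the values compared within Elane-high cells, were chosen after their values were seen. Siglecf had no row. Promoters come from RefSeq on another build (GRCm38.p6) than the files, matched by symbol for 9 of 10 members. Python 3.11.15, pandas 2.3.3 and scipy 1.17.1 were used.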

Additional observations from a re-analysis of the deposited data

How the results depend on the processing

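Among the members, no difference of 1 or more in size (Gata2, Mcpt8 and Hdc) changed sign. Single differences of the other list genes and markers were not recomputed under the alternatives. Below that size Fyb turned from +0.21 to -0.03 with a pseudocount of 10 and -1.08 with the ratio of mean TPM, Apoe from +0.17 to -0.14 with a pseudocount of 0.1, Prg2 from +0.37 to -0.02 in the shared range and Ms4a2 from -0.58 to +0.05 without the 6 cells. For the single members, 54 of 60 values under alternatives moved by less than the spread over cells. The 6 that moved used the log2 ratio of mean TPM: Cpa3 -7.37, Gata2 -5.38, Ms4a2 -5.27, Prss34 -0.95, Prg2 +10.41 and Epx +5.64, each a ratio that a few cells decide. The spread over cells was larger than each member's own difference, so the 54 cannot show that the differences were stable. Among the 54 was Hdc, which went from -2.64 to -0.95 in the shared range. Counts and shares moved in 24 of 88 cases, and the cause was not tested. Members lower in CD11b+ GMP-P were 3, and 2 with a pseudocount of 10 (without Gata2, at -0.98) and in the shared range (without Hdc), and 4 with the ratio of means. Members higher in CD11b+ GMP-P were 0, and 1 (Apoe) both with that ratio and in cells of a shared range of genes above 0. Pathway genes lower were 12, but 5 with a pseudocount of 10 and 7 in the shared range. Pathway genes higher were 2, but 0 with a pseudocount of 10, 6 with the ratio of means, 7 with median of ratios scaling, 4 in the shared range and 0 with a filter of 30%. Of all genes, 3000 were lower, but 1263 with a pseudocount of 10, 1903 with median of ratios and 1672 in the shared range. Higher were 245, but 397 and 90 with pseudocounts of 0.1 and 10, 686 with the ratio of means, 415 with median of ratios and 589 in the shared range. The median of detected genes was -0.76, and between -1.28 and -0.27 over the alternatives. GMP cells with 4 or more members were 5, but 8 at a threshold of 1 TPM, 3 at 100 TPM and 2 in the shared range, which leaves out GMP cells 11, 13 and 42. CD11b+ GMP-P cells with as many were 1, but 3 at 1 TPM and 0 in the shared range, which leaves out cell 76. Gata2 in Elane-high CD11b+ GMP-P cells was 3.45%, but 0 at a threshold of 100 TPM and in the shared range. Without the 6 cells with 4 or more members the differences were -0.36 for Cpa3 (-0.86 with them), -1.25 for Gata2, -1.68 for Mcpt8, -2.95 for Hdc, +0.85 for Fyb and +0.80 for Apoe. No paired analysis was possible because the cells carry no shared replicate numbers. Depth per cell is unknown, so a value of 0 may be a missed transcript.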

Other observations

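The following values were picked after the cells were seen. GMP cells 8, 11 and 42 had 434 genes at 10 TPM or more in common. Of these, 2 were held by no other cell: Gnb4, a G protein beta subunit, at 242, 548 and 339 TPM, and Lag3, an inhibitory receptor known from T cells, at 439, 82.4 and 17.4 TPM. Il1rl1, at 20.01, 277 and 14.8 TPM, was held by 1 other cell, at 16.9 TPM.

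CD11b+ GMP-P cell 76 had 13 genes at 10 TPM or more that no other cell held. Besides Epx, Alox15 and Ear1, they included the GTPase gene Gimap6 at 1418 TPM and Fhit at 1057 TPM.

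With the members left out, the genes held by at least 4 of the 6 cells with 4 or more members and by the fewest of the other 85 cells were the following. Thap3 was held by 9 of the 85, Gabarapl1 by 12, 1700047I17Rik2, Akirin1 and Fam177a by 17 each, Anapc4 and Ifitm1 by 19 each, and Lgals3bp, Ier3 and Prkacb by 20 each. Lgals3bp, a secreted glycoprotein, was held by 5 of the 6.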
